A study of Mus musculus with 6 samples.

Results

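The claudins described here are 10 genes of the mouse heart array, Cldn1, Cldn2, Cldn3, Cldn4, Cldn5, Cldn7, Cldn10, Cldn12, Cldn15 and Cldn23, found by an exact match of the gene symbol among the 18138 symbols of the table. They are read by 15 of its 25697 probes, 4 of them for Cldn10, 3 for Cldn15 and 1 for each of the other genes. The set was chosen by measured values of these same hearts, with Cldn23 taken for its difference between the groups and the others as members of its family, so the differences of these 10 genes are given as a description and without a p-value.

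Claudins are small proteins that span the membrane and join neighbouring cells in tight junctions, where each pairing of claudins sets how freely ions and solutes pass between the cells. Some, such as Cldn1, Cldn3 and Cldn5, mainly seal the junction, while others, such as Cldn2, Cldn10 and Cldn15, form channels for ions. In the heart the best known member is Cldn5, the main claudin of blood vessel endothelium, which is also found at the lateral membranes of cardiomyocytes.

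Hearts of 3 hSRY-ON and 3 hSRY-OFF male mice at postnatal day 6 (P6) were compared to find the changes in RNA that follow activation of a human SRY transgene, the testis-determining gene of the Y chromosome. All mice were of the FVB strain by the labels, given as FVB/N in the methods. The Signalox-hSRY responder is a single copy at the H11 locus on chromosome 11, in which the ubiquitous CAG promoter drives DsRed2 until Cre recombination places a FLAG-tagged hSRY followed by EGFP under it. The hSRY-ON pups came from a Signalox-hSRY father and a Ddx4-Cre mother, whose oocyte supplies the recombinase, and those used for RNA did not carry the Ddx4-Cre transgene themselves. For hSRY-OFF, the methods name mice with the unrecombined responder and also describe control littermates without it, so the genotype of these 3 controls is not settled. Nothing in the labels names pooled animals. Since the CAG promoter is active in all tissues, what hSRY does in the heart and what it does to the heart through other organs cannot be told apart.

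The values below are log2 intensities after background correction and quantile normalization, in which 1 unit is a 2-fold difference of 1 probe between hearts, and a probe counts as detected on an array when its deposited detection p-value was under 0.05. Probes differ in brightness, so a level was not compared between genes, and a difference or sum over several probes is read only between hearts. Between 47.2% and 51.3% of all probes were detected on each array, and all 9 cardiomyocyte genes measured, among them Myh6, Myl2 and Nppa, were detected in both groups. A heart that stands apart has to be named first. In hSRY-ON replicate 1, Scgb1a1, the secretory protein of airway club cells, read 13.74 against 4.53 to 6.52 in the other 5 hearts, Scgb3a2 read 13.24 against at most 4.83, and the lung surfactant protein gene Sftpd read 9.58 against at most 5.04. Over 9 lung epithelium genes the summed normalized intensity ranged from 254 to 332 among hSRY-OFF hearts and from 284 to 24400 among hSRY-ON hearts. Sftpa1, Nkx2-1 and Lamp3 were detected on no array. The alveolar gene Sftpc read 4.83 in hSRY-ON replicate 1, below detection, and was detected only in hSRY-ON replicate 3, at 5.32. The surfactant gene Sftpb was detected in all 3 hSRY-ON hearts and in 1 hSRY-OFF heart, with its highest value, 5.88, in hSRY-ON replicate 1. Values without hSRY-ON replicate 1 are given beside the claudins whose difference moved most.

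Reference sequence shows the window just upstream of the claudin genes. Promoters from RefSeq on GRCm38.p6 matched 9 of the 10 genes, with Cldn23 missing, and gave 13 start sites. The 250 bases before the start are printed for Cldn5, the member called lower in hSRY-ON hearts, and for Cldn4 and Cldn7, which hold a searched motif. The capitals mark CAGGTG or its reverse complement CACCTG, the E-box form bound by repressors of the Snail and Zeb families.

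Cldn5, chr16:18776597-18776846, plus strand: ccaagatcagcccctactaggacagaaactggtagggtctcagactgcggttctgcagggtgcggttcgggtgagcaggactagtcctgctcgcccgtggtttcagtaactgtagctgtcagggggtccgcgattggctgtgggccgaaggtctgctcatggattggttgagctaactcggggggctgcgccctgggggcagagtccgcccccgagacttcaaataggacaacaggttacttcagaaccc
Cldn4, chr5:134946935-134947184, minus strand: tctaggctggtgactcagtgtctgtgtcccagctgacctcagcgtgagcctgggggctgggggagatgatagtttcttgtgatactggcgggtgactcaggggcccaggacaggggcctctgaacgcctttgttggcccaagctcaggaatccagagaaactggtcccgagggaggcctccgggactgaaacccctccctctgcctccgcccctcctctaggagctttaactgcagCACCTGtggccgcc
Cldn7, the second of 2 start sites, chr11:69965171-69965420, plus strand: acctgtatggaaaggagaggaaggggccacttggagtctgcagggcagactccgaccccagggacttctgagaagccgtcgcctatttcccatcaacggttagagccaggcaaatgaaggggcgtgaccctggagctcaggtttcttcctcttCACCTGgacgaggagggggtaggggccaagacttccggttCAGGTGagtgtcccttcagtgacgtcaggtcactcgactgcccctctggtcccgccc

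The search covered both strands. The 3 windows of Cldn12 overlap each other, so the 13 claudin promoters are not all separate stretches. CAGGTG or CACCTG was found in 2 of the 13 claudin promoters, against 17.2% of 32851 promoters of the same length. In the Cldn4 window it begins 14 bases before the start, and in the Cldn7 window it begins 97 and 57 bases before it. AACAAT or its reverse complement ATTGTT, the core sequence recognised by the DNA-binding box of SRY and the SOX factors, was found in 0 of the 13, against 9.42% of all promoters. These counts describe letters in 250 bases and give no binding. The printed Cldn5 window is 59.6% G and C.

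Of the 15 claudin probes, 8 were detected on at least 3 of the 6 arrays and were therefore fitted: those of Cldn1, Cldn5, Cldn7, Cldn12 and Cldn23, 1 of the 4 of Cldn10 and 2 of the 3 of Cldn15. At an adjusted p under 0.05, the Cldn23 probe was called higher and the Cldn5 probe lower in hSRY-ON hearts, and 6 were not called. Over all 12970 probes tested the same rule called 27.5%, with 13.8% higher and 13.7% lower. The median difference of the 8 fitted claudin probes, hSRY-ON minus hSRY-OFF, was 0.20 on the log2 scale, and that of all tested probes was -0.005. Cldn23 was taken for its difference in these hearts, so its call was fixed by the choice. The count and the median that include it are a description and no test. A probe passed the detection rule through either group, so these 8 do not stand for all 15. Of the 7 others, 5 were detected in no heart, namely those of Cldn2 and Cldn4, 2 of Cldn10 and 1 of Cldn15, and the probes of Cldn3 and the fourth of Cldn10 were detected in hSRY-ON hearts alone, on 2 arrays and 1 array. In the plot of the 15 probes by heart, the groups part most widely for Cldn23 and Cldn5 among the fitted probes.

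**Figure D1:**
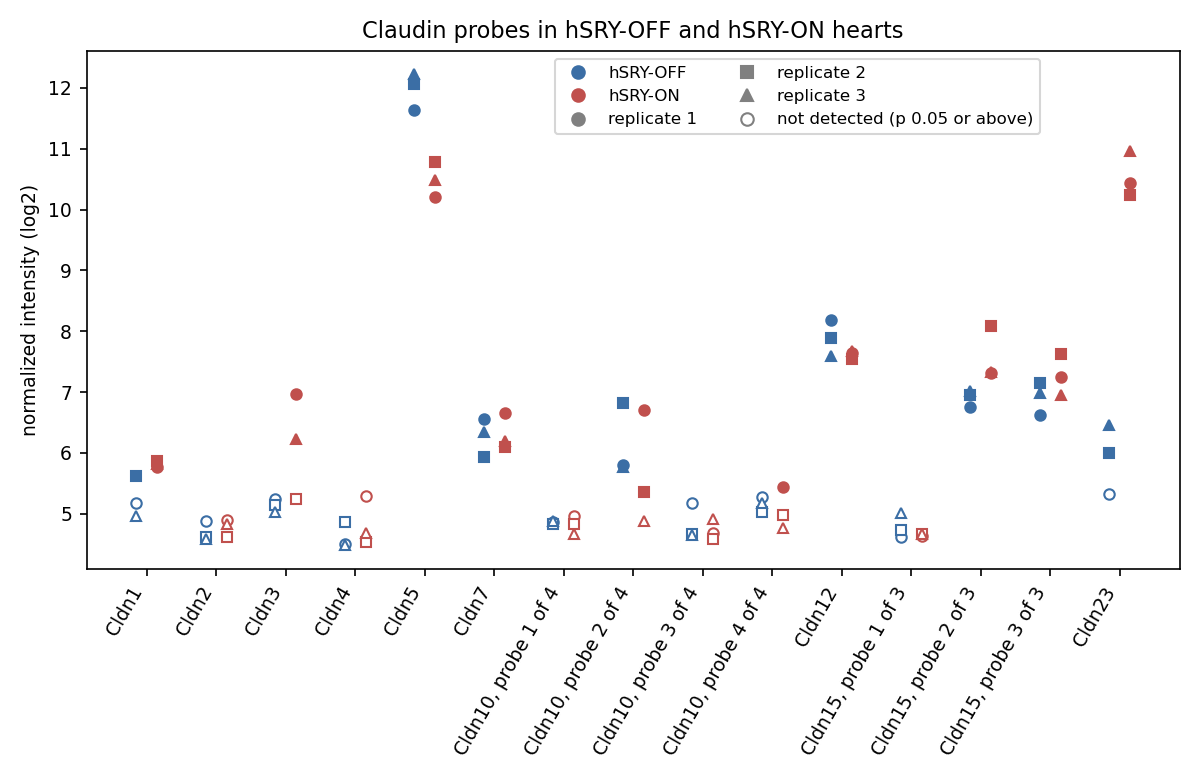
Normalized log2 intensity (vertical axis) of each of the 15 claudin probes (horizontal axis) in the 3 hSRY-OFF and 3 hSRY-ON hearts; 1 point is 1 heart, and an open point is a heart in which the probe was not detected. Cldn23 lies between 5.33 and 6.46 in hSRY-OFF and between 10.24 and 10.96 in hSRY-ON hearts, and Cldn5 is the one probe with all hSRY-ON hearts below all hSRY-OFF hearts among those tested.

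Cldn23, a divergent claudin known from differentiated surface epithelium such as that of the colon, went from the edge of detection to a clear signal. Its deposited intensities were 187.0, 231.7 and 189.1 in the hSRY-OFF hearts and 1427.8, 1337.1 and 1973.6 in the hSRY-ON hearts. The corresponding log2 levels were 5.33, 5.99 and 6.46 in hSRY-OFF, of which the first was not detected, and 10.44, 10.24 and 10.96 in hSRY-ON hearts. Every hSRY-ON heart lay far above every hSRY-OFF heart, before and after normalization. The means were 5.93 ± 0.57 and 10.55 ± 0.37 (SD, n = 3 each), a difference of 4.62 ± 0.30 (SE) or 24.6-fold, with a 95% confidence interval of 3.92 to 5.32 on the log2 scale. This was the 5th largest difference among the 12970 probes tested. The size depends on how the background is handled, since the control hearts were near it. The log2 difference was 3.04 (8.24-fold) without background correction and 4.0 (15.9-fold) with an offset of 50 in place of 16. It was 4.68 without hSRY-ON replicate 1 and between 4.32 and 4.91 whichever heart was left out. In bulk RNA, more cells of a type that makes Cldn23 and more Cldn23 RNA per cell cannot be told apart, and the same holds for every gene below.

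Genes of other epithelia were read beside Cldn23. Of 13 epithelial genes listed, 12 had a probe and 5 were fitted. The keratins Krt18 and Krt8, partners in the filaments of simple epithelia, rose by 1.97 (adjusted p = 8.25e-05) and 1.91 (adjusted p = 0.000369) in limma's test with Benjamini-Hochberg adjustment. Cdh1, the adhesion protein E-cadherin, differed by -0.39 (adjusted p = 0.179), Krt7 by 0.11 and the channel-activating protease Prss8 by -0.42, none of them called. Of the defining genes, Elf3, Ovol1 and Spint1 were detected on no array, while St14, the protease matriptase, was detected in 2 hSRY-ON hearts, at 6.75 and 6.16, and in no hSRY-OFF heart. The summed normalized intensity of the list ranged from 738 to 782 over the control hearts and from 1470 to 1750 over the hSRY-ON hearts. This sum includes Krt8 and Krt18, and its rise mostly restates theirs. Mesothelium and epicardium, the covering layers of the heart, had 7 fitted genes, with a median difference of 0.36. Krt19 (1.32, adjusted p = 0.00666) and Tcf21 rose, Aldh1a2 fell by 1.38 (adjusted p = 0.00543) and 4 were not called. These 4 were Upk1b at 0.85 (adjusted p = 0.0698), Msln at 0.36, Bnc1 at 0.20 and Upk3b at -0.04. Over all tested probes, 13.8% were called higher and 13.7% lower, the shares to set beside the calls of both lists. The summed intensity of the mesothelium and epicardium list ranged from 4850 to 5440 over the control hearts and from 6120 to 7800 over the hSRY-ON hearts. Most of this rise came from the Tcf21 probe, with log2 means of 11.42 in hSRY-OFF and 12.18 in hSRY-ON hearts. Any part of these cells in the Cldn23 signal was not tested.

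The genes whose values over the 6 hearts ran closest to those of Cldn23 were ranked by the root mean square difference of log2 values, each probe centred on its own mean. Pgf, a ligand of the vascular endothelial growth factor family, came first with a difference of 0.25, followed by Arhgef4, a guanine nucleotide exchange factor, with 0.40. Serpina3h, a serine protease inhibitor, Aldoc, a glycolytic aldolase, and Ppp1r1b, a regulator of protein phosphatase 1, followed with 0.55, 0.60 and 0.63. Like Cldn23, the Pgf probe was detected in 2 of the 3 hSRY-OFF hearts and in all 3 hSRY-ON hearts, with means of 5.65 ± 0.56 and 10.28 ± 0.12 (SD, n = 3 each). Likeness here mostly repeats the size of the group difference, which ran from 3.87 for Ppp1r1b to 4.86 for Arhgef4, and it is a description over 6 hearts. The genes beside Cldn23 in RefSeq order on GRCm38.p6 were looked up after the values were seen. On one side, Gm19410 and Mfhas1 had no probe, and the genes on the other side were not called. Prag1 differed by 0.29 (adjusted p = 0.342) and Lonrf1 by 0.14 (adjusted p = 0.743).

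Cldn5, the claudin of vascular endothelium, was lower in hSRY-ON hearts. Its deposited intensities were 3759.5, 5439.7 and 3883.3 in hSRY-OFF and 1219.0, 1903.4 and 1485.2 in hSRY-ON hearts. On the log2 scale these were 11.63, 12.07 and 12.22 in hSRY-OFF and 10.20, 10.79 and 10.49 in hSRY-ON hearts. The groups did not overlap on either scale, and every hSRY-ON heart lay below the dimmest hSRY-OFF heart. The means were 11.97 ± 0.31 and 10.49 ± 0.29 (SD, n = 3 each), a difference of -1.48 ± 0.21 (SE), with a 95% confidence interval of -1.96 to -1.0, which is 2.80-fold lower. It was detected in all 6 hearts, well above background, and the difference was -1.40 without background correction. Leaving out 1 heart gave -1.66 to -1.34, and the value without hSRY-ON replicate 1 was -1.34.

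Other endothelial genes moved both ways. Of 18 endothelial genes listed, 16 were fitted, and 4 rose, 4 fell and 8 were not called, against 13.8% higher and 13.7% lower over all probes. Their median difference was -0.18, with a range of -0.81 to 1.66. Plvap, the protein of the diaphragms of fenestrated endothelium, rose by 1.66 (adjusted p = 0.00122), and Vwf, the von Willebrand clotting factor, rose by 1.32 (adjusted p = 0.00658). Robo4, a guidance receptor that stabilises vessels, fell by 0.81 (adjusted p = 0.00227), and Cdh5, the endothelial junction cadherin, fell by 0.72 (adjusted p = 0.0109). Pecam1, the endothelial adhesion molecule CD31, differed by 0.01 (adjusted p = 0.974). The count that fell was 2 when replicate 1 or 2 of hSRY-OFF, or replicate 1 or 3 of hSRY-ON, was left out, with 3 or 4 called higher, and 6 without background correction or with an offset of 50, with 4 higher. The summed intensity of the list ranged from 41400 to 43100 over the control hearts and from 41400 to 47400 over the hSRY-ON hearts, and the Kdr probe alone was detected on no array.

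Within each heart, Cldn5 was set against these genes. Cldn5 minus the mean log2 level of the 16 endothelial genes was 0.76, 1.17 and 1.33 in hSRY-OFF and -0.69, -0.25 and -0.32 in hSRY-ON hearts. Cldn5 minus Pecam1 was 0.05, 0.64 and 0.43 in hSRY-OFF and -1.31, -1.0 and -1.04 in hSRY-ON hearts. Neither quantity overlapped between the groups. The endothelial mean itself lay between 10.81 and 11.04 in all 6 hearts and holds genes that moved both ways. Pecam1 differed by only 0.01 between the groups. Both quantities therefore mostly restate the Cldn5 level, and their lack of overlap adds no separate support. The cardiomyocyte list, whose cells also carry Cldn5, had 9 fitted genes. Of these, 1 (Nkx2-5) rose, by 0.68, and 4 fell, against 13.8% higher and 13.7% lower over all tested probes. Phospholamban (Pln) was lowest at -1.47, and the median was -0.30. How far either cell type accounts for the Cldn5 value was not tested.

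**Figure D2:**
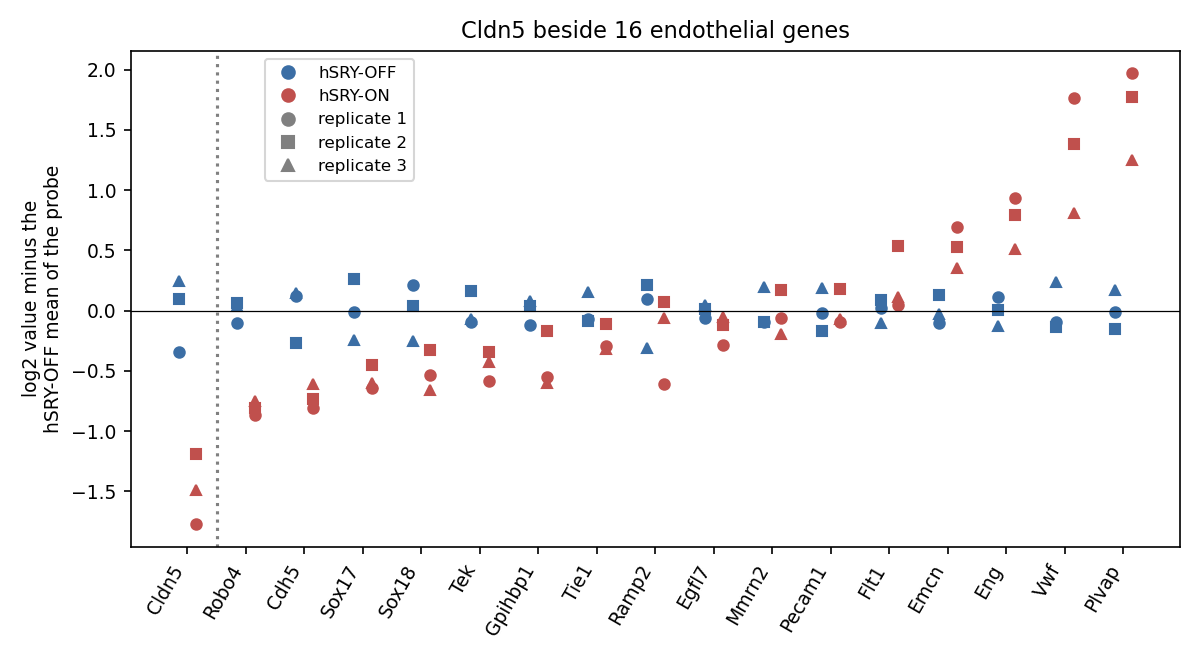
Log2 level minus the hSRY-OFF mean of the same probe (vertical axis) for Cldn5 and 16 endothelial genes, ordered by their difference between the groups; colours are groups, and circles, squares and triangles are replicates 1, 2 and 3. All 3 hSRY-ON points of Cldn5 lie below those of Robo4 and Cdh5, Pecam1 stays around 0, and Vwf and Plvap lie above it.

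The genes closest to Cldn5 over the 6 hearts, by the same measure, were Hnt (now Ntm, neurotrimin, a neural adhesion molecule) with a root mean square difference of 0.14, Bcl2l11 (Bim, which promotes apoptosis) with 0.14 and Tmod4 (a tropomodulin, which caps actin filaments) with 0.14. Tnfaip2 and Mov10l1, an RNA helicase, followed with 0.16 and 0.17. Hnt was detected in no hSRY-ON heart and was at least 2.29-fold lower there, and the other 4 were detected in all 6 hearts. As with Cldn23, all 5 genes share the group difference, which lay between -1.65 and -1.29. Of the genes on either side of Cldn5, the cell cycle gene Cdc45 differed by -0.39 (adjusted p = 0.14) and Septin5 by -0.04 (adjusted p = 0.903).

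Cldn1, the sealing claudin best known from the skin barrier, was near background in every heart. Its log2 levels were 5.17, 5.63 and 4.96 in hSRY-OFF hearts, with only the second detected, and 5.77, 5.86 and 5.82 in hSRY-ON hearts, all detected. The groups did not overlap on this scale, but the deposited intensities did, at 181.3, 212.6 and 145.8 against 183.0, 190.2 and 181.9. The difference was 0.56 ± 0.18 (SE), with a 95% confidence interval of 0.15 to 0.98, and it was not called. It was 0.16 without background correction and 0.32 with an offset of 50. It was called higher under 3 of the 14 other settings in which it was tested, among them the one without hSRY-OFF replicate 2, where it was 0.73. Of the 8 fitted claudin probes, 3 (Cldn1, the second of Cldn15 and Cldn23) had all hSRY-ON hearts above all hSRY-OFF hearts and 1 (Cldn5) had them all below, against 23.6% and 21.6% of all tested probes, or 45.2% in either direction.

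Cldn15, a claudin that forms cation pores in the intestine, was read by 3 probes. The 2 that were fitted both had a higher mean in hSRY-ON hearts, and neither was called. The second probe read 6.76, 6.95 and 7.02 in hSRY-OFF and 7.32, 8.09 and 7.34 in hSRY-ON hearts. The difference was 0.67 ± 0.22 (SE), with an interval of 0.16 to 1.19. The groups did not overlap, yet the probe was not called, and it was called under 3 of 16 other settings. Without hSRY-ON replicate 2, the highest heart, the difference was 0.42. The third probe read 6.62, 7.14 and 6.99 in hSRY-OFF and 7.26, 7.63 and 6.95 in hSRY-ON hearts, so the groups overlapped, and the difference was 0.36 ± 0.21 (SE) with an interval of -0.12 to 0.85. In both probes hSRY-ON replicate 2 was highest. The first probe was detected on no array, and which transcripts each probe reads was not examined.

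Cldn12, which lacks the C-terminal motif by which most claudins bind scaffold proteins, and Cldn7, a claudin of many epithelia, were detected in all 6 hearts and overlapped between the groups. Cldn12 read 8.19, 7.89 and 7.60 in hSRY-OFF and 7.64, 7.54 and 7.68 in hSRY-ON hearts. The difference was -0.27 ± 0.17 (SE), with an interval of -0.66 to 0.11. It was -0.12 without hSRY-OFF replicate 1, the highest heart. Cldn7 read 6.55, 5.94 and 6.34 in hSRY-OFF and 6.65, 6.10 and 6.20 in hSRY-ON hearts. Its difference was 0.04 ± 0.21 (SE) with an interval of -0.44 to 0.52, which does not show that it was unchanged, and it was -0.12 without hSRY-ON replicate 1.

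Cldn10, whose splice forms make channels for cations or anions in kidney and glands and which is abundant in airway club cells, varied more within groups than between them. The second of its 4 probes read 5.80, 6.82 and 5.76 in hSRY-OFF and 6.71, 5.36 and 4.88 in hSRY-ON hearts, the last not detected. The 2 highest hearts, hSRY-OFF replicate 2 and hSRY-ON replicate 1, were the same 2 in which Scgb1a1 was detected, at 6.52 and 13.74. The difference was -0.47 ± 0.48 (SE), with an interval of -1.59 to 0.64. It became -1.01 without hSRY-ON replicate 1, -0.12 without hSRY-OFF replicate 2 and -0.09 without hSRY-ON replicate 3, and was not called in any of these. The fourth Cldn10 probe was detected in hSRY-ON replicate 1 alone, at 5.44, and the other 2 in no heart. The part of airway RNA in these values was not tested.

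Cldn3 and Cldn4 are neighbouring genes and both claudins of many lining epithelia. Cldn3 read 5.25, 5.14 and 5.02 in hSRY-OFF hearts, none detected, and 6.97, 5.24 and 6.23 in hSRY-ON hearts, the first and the last detected. Detection on 2 arrays was too little for the fit, and hSRY-ON replicate 2 lay level with the controls, so the groups overlapped. The highest of the 6 hearts was hSRY-ON replicate 1, the heart with the airway genes. In hSRY-ON replicate 3, the other heart with Cldn3, Scgb1a1 read 4.80, Scgb3a2 4.62 and Sftpd 4.61, none of them detected. The lung epithelium genes Sftpc, Sftpb and Napsa were detected in that heart, at 5.32, 5.70 and 5.89. The part of lung RNA in the Cldn3 values was not tested. Cldn4 was detected in no heart. Cldn2, the cation channel of leaky epithelia, was detected in no heart, with levels of 4.58 to 4.89. A probe below detection gives no measure of the gene and does not show that its RNA was absent.

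**Figure D3:**
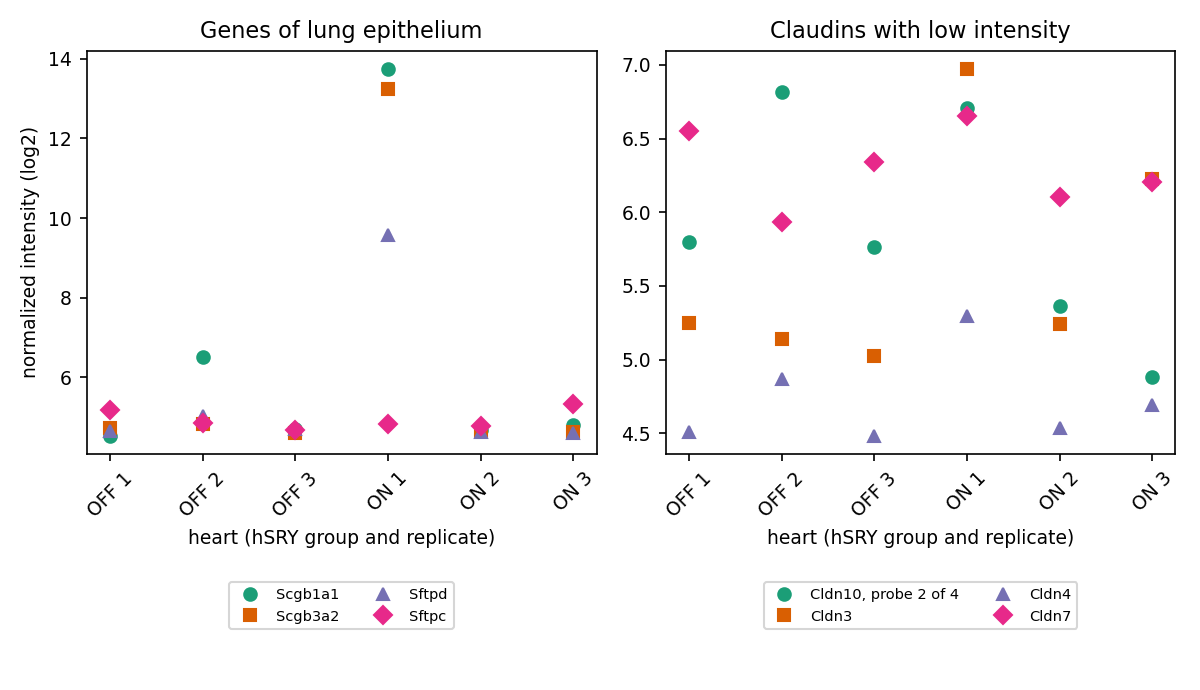
Normalized log2 intensity (vertical axes, with different ranges) in each of the 6 hearts (horizontal axes) for 4 genes of lung epithelium (left) and 4 claudin probes of low intensity (right); 1 point is 1 heart. Scgb1a1, Scgb3a2 and Sftpd stand at 13.74, 13.24 and 9.58 in hSRY-ON replicate 1, where Cldn3 and Cldn7 also have their highest value and Cldn10 its second highest, while Cldn4 was below detection in all 6 hearts.

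Most other claudins on the array were not detected. Of 12 probes for the 10 genes Cldn6, Cldn8, Cldn9, Cldn11, Cldn13, Cldn14, Cldn16, Cldn17, Cldn18 and Cldn19, 10 were detected in no heart. The lung claudin Cldn18 and the myelin claudin Cldn19 were among them. The 2 detected in all 6 hearts were not called. Cldn9 differed by -0.21 ± 0.15 (SE, adjusted p = 0.35), and Cldn11, the claudin of myelin and of Sertoli cell junctions, by -0.36 ± 0.27 (SE, adjusted p = 0.355). In limma's test 0 of these genes were called in either direction, and 0 had an unadjusted p under 0.05.

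Claudins act together with other junction proteins, and 33 such partners were listed by role. A probe existed for 29 of them and 22 were fitted, of which 5 rose and 4 fell (40.9% called, against 27.5% of all probes). Their median difference was 0.05. Of the 5, Ocln and Lsr were detected in hSRY-ON hearts alone, so the rule that let them be tested already favoured a difference. The counts were sensitive to single hearts. Without hSRY-ON replicate 1 they were 1 and 1, without hSRY-ON replicate 2 they were 2 and 4, and without hSRY-ON replicate 3 they were 1 and 2. Without hSRY-OFF replicate 1 they were 3 and 2, and without hSRY-OFF replicate 2 they were 3 and 1. Pard6g and Magi3 kept their call in every alternative run.

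Of the membrane-spanning partners, 5 were fitted, with 1 higher and 2 lower, against 13.8% higher and 13.7% lower over all tested probes. Jam2, an adhesion molecule of endothelial junctions, fell by 0.78 (adjusted p = 0.0287), and its other 2 probes fell by 1.17 (adjusted p = 0.00245) and 0.99 (adjusted p = 0.0107). Esam, the endothelial cell adhesion molecule, fell by 0.51 (adjusted p = 0.0226). The call of this first Jam2 probe was lost under 5 alternatives and that of Esam under 4. The log2 levels of Esam were 12.68, 12.79 and 12.73 in hSRY-OFF and 12.05, 12.36 and 12.26 in hSRY-ON hearts, without overlap. Occludin (Ocln), the companion of claudins in the strands, passed the detection rule through the hSRY-ON hearts alone, and its values there, 5.30 to 5.40, were too close to background to give a fold. F11r, the epithelial junction adhesion molecule, was detected on 1 array and not fitted. Cxadr, the coxsackievirus receptor, had a probe that differed by 0.08 (adjusted p = 0.747) and another that rose by 1.36 (adjusted p = 0.00189), so its direction depends on the probe.

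Among 8 scaffold proteins fitted, 2 rose and 2 fell, against 13.8% higher and 13.7% lower over all tested probes. Tjp1 (ZO-1), to which most claudins bind, fell by 0.59 (adjusted p = 0.0323), a call lost under 8 of the alternatives. Magi3 fell by 0.88 (adjusted p = 0.00988), and its other probe fell by 0.74 (adjusted p = 0.00564). Magi1 and Mpdz rose by 0.55 (adjusted p = 0.0445) and 0.39 (adjusted p = 0.0409), but none of their other probes was called, and these calls were lost under 9 and 11 of the alternatives. Paracingulin (Cgnl1) differed by -0.10 (adjusted p = 0.723).

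Over all tested probes 27.5% were called. Of the 7 polarity proteins fitted, Pard6g, a subunit of the complex that places tight junctions in the cell, was the one called. It read 7.81, 8.22 and 8.01 in hSRY-OFF and 9.29, 9.60 and 9.58 in hSRY-ON hearts, a rise of 1.48 ± 0.15 (SE, adjusted p = 0.000748). Its relatives Pard6a and Pard6b differed by -0.09 (adjusted p = 0.658) and 0.02 (adjusted p = 0.912). Inadl and Prkcz were not called with their brighter probe, while a second probe of Inadl fell by 0.73 (adjusted p = 0.0242) and one of Prkcz rose by 0.64 (adjusted p = 0.0172). Of the proteins of tricellular contacts, Lsr (angulin-1) was detected in no hSRY-OFF heart and in all 3 hSRY-ON hearts, at 6.48, 6.92 and 6.25, and was at least 2.18-fold higher. It too passed the detection rule through the hSRY-ON hearts alone, so its call is no independent support. Ildr1 differed by 0.43 (adjusted p = 0.137).

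**Figure D4:**
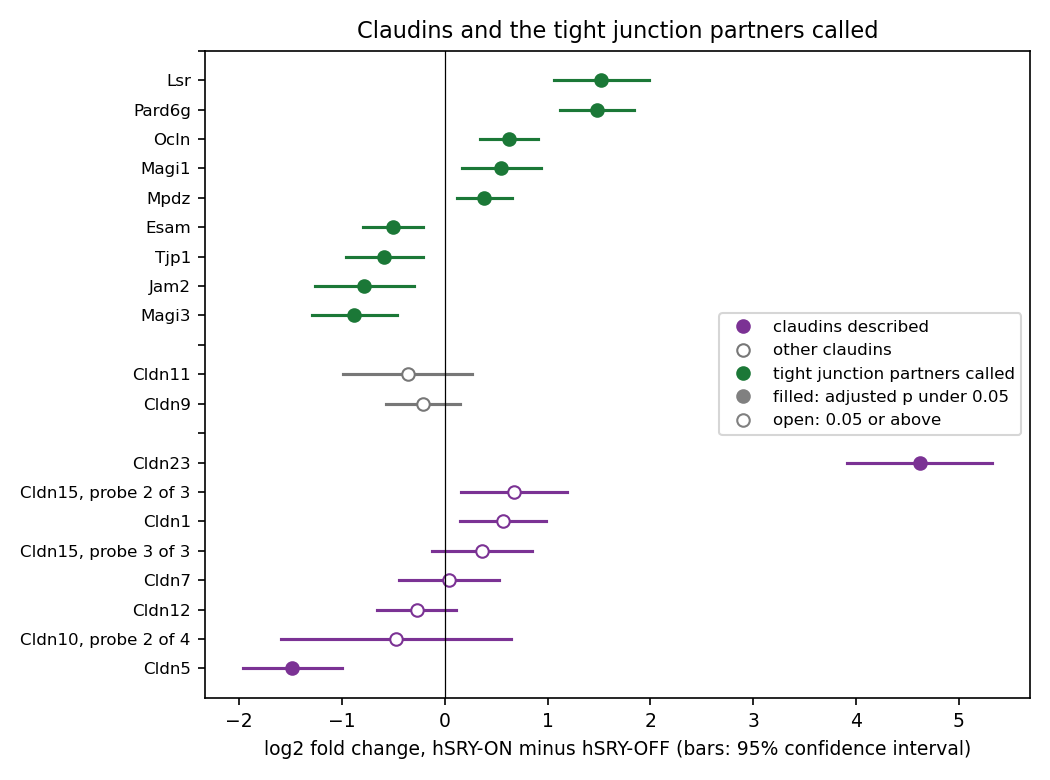
Log2 difference, hSRY-ON minus hSRY-OFF (horizontal axis), with its 95% confidence interval from limma, for the 8 fitted claudin probes, 2 other claudins and the 9 tight junction partners that were called (vertical axis); filled points were called at an adjusted p under 0.05. Cldn23 stands at 4.62 and Cldn5 at -1.48, outside the range of -0.88 to 1.52 spanned by the partners shown.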

How the data were processed

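Total RNA of 6 hearts, 3 from hSRY-ON and 3 from hSRY-OFF mice, was hybridized by the authors to MouseRef-8 v2.0 BeadChip arrays. They deposited the mean bead intensity per probe, neither normalized nor background-subtracted (the lowest values were 110 to 135), and a detection p-value per probe and array. The methods name TCC for the study's own normalization, without settings. No genome build enters the values. Groups came from the sample titles, which do not state separate animals beyond 3 biological replicates per group in the methods.

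In R 4.3.3 with limma 3.58.1, neqc was run with an offset of 16. It infers the negative controls through the detection p-values, subtracts background by the normexp model, applies quantile normalization and returns log2 values. Testing was limited to the 12970 probes detected at p under 0.05 on at least 3 of 6 arrays. Differences came from lmFit and eBayes with group as the only term, two-sided, with Benjamini-Hochberg adjustment over all tested probes, 3567 of which were called. The number of arrays limits the precision. With several probes of a partner or marker gene, the brightest stood for it. A probe detected in no heart of a group gives a bound against the lowest detected signal. The steps were tested on simulated data. There 54% of the probes with a true log2 difference of 1 were called, and 88% of those with 2, with 8 false calls. A probe that was not called may therefore still differ between the groups. Python 3.11.15 with matplotlib 3.10.9 drew the figures.

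The members, lists and the rule for named genes (every claudin probe, other claudins detected anywhere, the called partners with 5 fixed ones, the extremes of each marker list and the 5 nearest genes of Cldn23 and Cldn5) were chosen with earlier results of these data known, and a few genes outside it were named after their values were seen. Some genes that the rule names are not reported here. Replicate numbers did not pair the hearts, with correlations of deviations of -0.025, 0.038 and -0.066. Alternatives covered background, normalization, filter, variance model, replicate block and each heart left out.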

Additional observations from a re-analysis of the deposited data

How the results depend on the processing

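With all hearts kept, the Cldn23 difference ranged from 3.04 to 4.66 and that of Cldn5 from -1.59 to -1.40. Cldn23 was chosen on this contrast, and Cldn5 came in as a member of its family with the contrast known. Their repeated calls therefore do not measure stability. With detection required on all 6 arrays, Cldn23 was not tested, and the 1 claudin probe called higher was the second of Cldn15. No called value reversed. Among the claudins, 2 were called higher in place of 1 with an offset of 50, median scaling, a 2-pass scaling in the manner of TCC and a trended robust variance, and 1 to 2 when a heart was left out, with 1 lower in each of these. Other claudins had 0 calls in either direction under every alternative run. Tight junction partners called higher numbered 3 in place of 5 without background correction, with median scaling, with the 2-pass scaling, with detection on all 6 arrays and with a trended robust variance, and 2 without normalization, when 2 were called lower in place of 4. Leaving out 1 heart gave 1 to 4 higher and 1 to 4 lower. Over all probes, omitting the normalization moved the median difference to -0.117 and gave 731 higher and 1166 lower calls (38.5% higher) in place of 1788 and 1779, and leaving out 1 heart gave 1081 to 1821 higher and 1061 to 1848 lower. With the replicate number as a block, which the correlations do not back as a pairing, the calls of Cldn23 and Cldn5 were unaltered, 2 partners were lower and 4 higher, and 1420 and 1422 probes were called. Endothelial genes numbered 2 higher and 2 lower without normalization, and 4 higher and 5 lower with detection on all 6 arrays. A pair of alternatives was chosen after seeing the data, the difference of deposited intensities and every tested endothelial probe, which gave 4 higher and 4 lower. The cause of these shifts was not tested. Signal over background limits Cldn1, Cldn3, Cldn10 and the control level of Cldn23.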

Other observations

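Further marker lists were read in the same hearts, beside 13.8% called higher and 13.7% lower over all tested probes. Of 7 hepatocyte genes, 2 were fitted. Ahsg, the plasma protein fetuin-A, rose by 3.07 (adjusted p = 0.00108). Ttr, the thyroid hormone carrier transthyretin, was detected in hSRY-ON hearts alone and was at least 3.87-fold higher there. It passed the detection rule through those hearts alone. Apoa1, an apolipoprotein, was detected in 2 hSRY-ON hearts and in no hSRY-OFF heart, with all hSRY-ON hearts above, at up to 7.23. Alb, Afp, Fgb and Apoc3 were detected on no array. Of 10 thymus genes, 4 were fitted, and Ccl25 rose by 0.71 (adjusted p = 0.0216) while Cd3g fell by 0.78 (adjusted p = 0.032), calls lost under 4 and 7 of the alternatives. Neither of the 2 fitted Schwann cell genes was called, with the myelin gene Mbp at an adjusted p of 0.991.

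Neighbours of claudin genes in RefSeq order on GRCm38.p6, named after their values were seen, had values of their own. P3h2, a collagen prolyl hydroxylase beside Cldn1, rose by 3.02 (adjusted p = 6.04e-05), and Slc2a4, the insulin-responsive glucose transporter beside Cldn7, was 2.82-fold lower (adjusted p = 0.000881). Elp5, on the other side of Cldn7, differed by -0.01 (adjusted p = 0.974). Abhd11, beside Cldn3, fell by 0.53 (adjusted p = 0.0129).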
